A study of Homo sapiens with 4 samples.

Results

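The 10 receptor tyrosine kinase genes EGFR, ERBB2, PDGFRA, PDGFRB, KIT, MET, IGF1R, INSR, FGFR1 and NTRK2 were followed in U251-MG, an established human glioblastoma cell line. They were chosen by gene symbol in the table of read counts per gene, and all 10 were found among its 61806 genes. Total RNA was sequenced in 4 libraries. The 2 COL8A1 libraries came from cells infected with the lentiviral vector pCDH-CMV-MCS-EF1-puro carrying COL8A1 cDNA, which encodes a chain of the network-forming collagen VIII, and the 2 NC libraries came from cells given a negative control vector. All cells were wild type by their labels and grew in DMEM with fetal bovine serum, so serum growth factors were present in both groups. CMV names the viral promoter of the vector. The labels do not say whether the cells of a group were 1 clone or a pool, or whether its libraries came from separate cultures. The question the design poses is what the COL8A1 vector changed, here for the receptors, their ligands and the signalling genes below them.

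Total counts were 31605164 and 27923796 in the COL8A1 libraries and 30895414 and 33576228 in the NC libraries, and the scaling factors for library size ran from 0.993 to 1.007. COL8A1 itself had 4290 and 2259 counts in COL8A1 cells and 77 and 82 in NC cells, a log2 fold change of 5.45 in the direction of the labels. The edgeR test used below did not call it at its threshold of 0.05 (edgeR adjusted p = 0.0681). Of 10 astroglial and glioma markers, 9 were above 1 CPM (counts scaled to library size), with a summed level of 4484 to 5068 CPM in COL8A1 cells and 4157 to 4733 CPM in NC cells, while the astrocyte water channel AQP4 had no read. GFAP, the astrocyte filament gene, was low, with a mean of 1.94 CPM in COL8A1 cells and 0.624 CPM in NC cells. All 9 tested astroglial markers had a positive change, 4 of them at an unadjusted edgeR p under 0.05, against 6.07% of all genes. edgeR called none of them after adjustment and DESeq2 called 2, against 0.0117% and 1.06% of all genes. The summed levels were 46.8 to 51.3 CPM in COL8A1 cells and 52.3 to 58.7 CPM in NC cells for 5 neuronal markers, and 0.283 to 0.396 CPM against 0.0593 to 0.391 CPM for 4 oligodendrocyte markers, with MOG and MAG at 0. They were 0.598 to 0.900 CPM in COL8A1 cells and 0.623 to 0.783 CPM in NC cells for 5 microglial markers, with AIF1 at 0, and 62.2 to 79.7 CPM against 64.7 to 65.6 CPM for 5 endothelial markers. Fibroblast and pericyte markers summed to 12.1 to 13.8 CPM in COL8A1 cells and 12.1 to 13.2 CPM in NC cells, and epithelial markers to 420.1 to 496 CPM against 379.9 to 466 CPM. Few genes carried some sums: 2 of 5 neuronal, 2 of 5 endothelial and 3 of 5 epithelial markers were above 1 CPM. The astroglial and glioma sum was mostly VIM, with a mean of 2872 CPM over the 4 libraries. SOX2, CD44 and NES had 597, 462 and 420 CPM, and S100B had 2.04. Means over the 4 libraries were 65.9 CPM for CDH5, 0.316 for PECAM1 and 0.0232 for CLDN5. KRT8 and KRT18 had 325 and 105 CPM, EPCAM 0.0567 and CDH1 0.176. SYT1 and STMN2 had 26.0 and 26.1 CPM, RBFOX3 0.027. The part of these marker levels in the receptor values was not tested.

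Receptor tyrosine kinases are membrane proteins, most of which pair up when a ligand binds outside the cell. The paired receptors phosphorylate each other inside it. They so recruit adaptors that switch on the RAS and MAPK cascade and the PI3K and AKT pathway. In glioblastoma EGFR is the receptor gene most often amplified, PDGFRA amplification marks a share of tumours, and MET, the receptor for hepatocyte growth factor, is known for its part in invasion. ERBB2 pairs with EGFR, PDGFRB and KIT are close relatives of PDGFRA, IGF1R and INSR bind insulin-like growth factors and insulin, FGFR1 binds fibroblast growth factors, and NTRK2 is the receptor for brain-derived neurotrophic factor.

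The sequences just upstream of 4 of these genes are shown because the receptors fall into a group that was read in every library and a pair that was hardly read at all. MET and EGFR stand for the first, KIT and PDGFRB are the second. All are RefSeq sequences of build GRCh38.p14, written 5′ to 3′ on the strand of the gene, and end directly before the more upstream of the RefSeq and GENCODE starts, which leaves 250 bases for MET and EGFR, 211 for KIT and 223 for PDGFRB. The capitals mark GC boxes, searched as GGGCGG on either strand, so that CCGCCC is the same box on the other strand. The windows are chr7:116671946-116672195 (plus strand) for MET, chr7:55018767-55019016 (plus strand) for EGFR, chr4:54657707-54657917 (plus strand) for KIT and chr5:150155873-150156095 (minus strand) for PDGFRB.
MET: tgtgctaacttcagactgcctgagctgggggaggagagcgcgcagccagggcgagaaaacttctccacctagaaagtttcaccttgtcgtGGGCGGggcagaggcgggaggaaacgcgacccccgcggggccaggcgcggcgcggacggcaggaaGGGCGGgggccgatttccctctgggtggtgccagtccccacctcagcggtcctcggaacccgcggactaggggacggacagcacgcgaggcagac
EGFR: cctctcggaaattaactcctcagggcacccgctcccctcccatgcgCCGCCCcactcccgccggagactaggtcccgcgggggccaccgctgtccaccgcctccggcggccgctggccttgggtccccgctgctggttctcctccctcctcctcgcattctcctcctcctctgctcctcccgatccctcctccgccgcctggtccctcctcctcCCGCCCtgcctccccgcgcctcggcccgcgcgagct
KIT: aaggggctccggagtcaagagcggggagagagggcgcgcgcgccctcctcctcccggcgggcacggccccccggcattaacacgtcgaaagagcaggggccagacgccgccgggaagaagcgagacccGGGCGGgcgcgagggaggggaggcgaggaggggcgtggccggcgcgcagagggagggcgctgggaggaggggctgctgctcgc
PDGFRB: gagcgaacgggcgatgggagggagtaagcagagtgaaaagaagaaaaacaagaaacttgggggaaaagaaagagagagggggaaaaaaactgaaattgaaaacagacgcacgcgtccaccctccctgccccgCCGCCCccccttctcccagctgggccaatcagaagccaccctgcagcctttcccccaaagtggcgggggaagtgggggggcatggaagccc

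The GC box was present upstream of all 4 genes, well read or not. MET and EGFR had 2 boxes each in the 250 bases before the RefSeq start, KIT and PDGFRB 1 each, and the motif was in 42.6% of 35116 RefSeq windows of that length. Among the 9 receptors found in the promoter table, INSR had 4 boxes, IGF1R 2, NTRK2 1, and PDGFRA and ERBB2 none. Each gene had 1 window, at the RefSeq start nearest its GENCODE start, and other starts were not searched. That start lay 755 bases from the GENCODE start for NTRK2, 380 for INSR, 196 for PDGFRA, 194 for MET and 180 for ERBB2. For the rest it lay 39 bases away or fewer. FGFR1 had no entry. A TATA box, searched as TATAAA on either strand, was in none of the 9 windows and in 10.7% of all windows. In the 250 bases before its RefSeq start, of which the last 39 lie past the printed KIT sequence, KIT held 34 CpG pairs and 76.4% G and C, against a median of 11 CpG pairs and 58% over all windows, and IGF1R had 48 CpG pairs, more than all but 0.205% of windows. PDGFRA, the most counted of the receptors, had 8 CpG pairs and 46.8% G and C. The presence or absence of these letters in a window is a description of the sequence and was not related to the counts by any test.

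PDGFRA and MET dominated the receptor reads. The 10 genes took 0.154% and 0.129% of all counts in COL8A1 cells and 0.139% and 0.132% in NC cells. PDGFRA and MET together made up 68.6% and 70.7% of these receptor counts in COL8A1 cells and 64.7% and 69.2% in NC cells. Of the 10 genes, 8 were above 1 CPM on average over the 4 libraries, and PDGFRB and KIT were not.

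**Figure D1:**
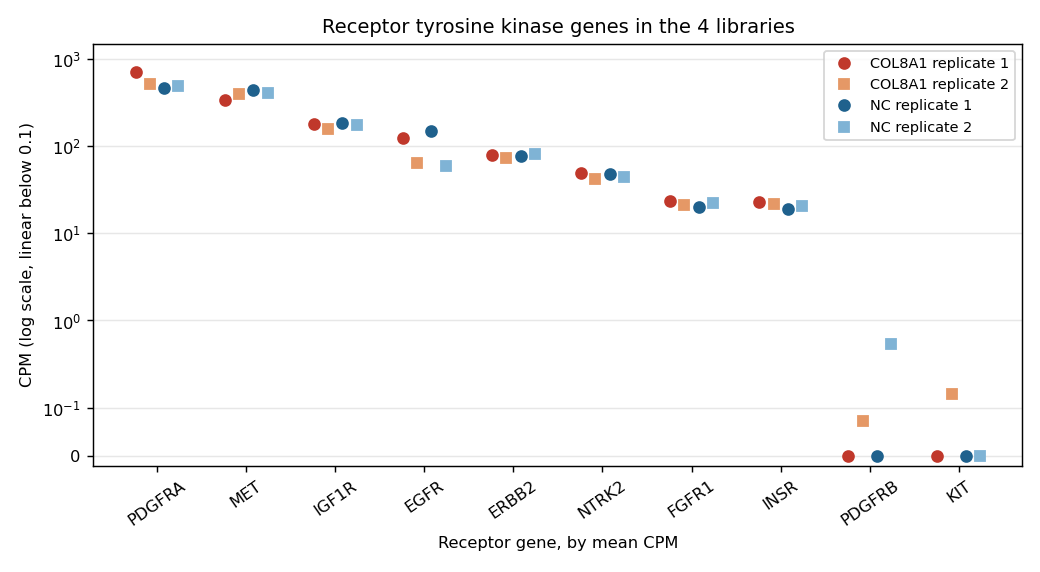
Levels of the 10 receptor genes in each library, in CPM on a log axis that is linear below 0.1, with the COL8A1 libraries left of the NC libraries and 1 symbol for each library. PDGFRA and MET lie between 342 and 709 CPM in all 4 libraries, EGFR lies at 126 and 148 CPM in the replicate 1 libraries and at 64.0 and 60.0 CPM in the replicate 2 libraries of COL8A1 and NC cells, and PDGFRB and KIT lie at or near 0.

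Levels of different genes can be set side by side only per length, and here CPM were divided by the kilobases (kb) of exon in GENCODE release 29. On that scale MET averaged 52.7 CPM per kb in COL8A1 cells and 61.0 in NC cells, and PDGFRA 62.8 in COL8A1 cells and 49.3 in NC cells. Their ranges over the libraries overlapped, so neither can be placed above the other, and both stood 4.49-fold or more above the next receptor. IGF1R followed with 12.1 CPM per kb in COL8A1 cells and 12.9 in NC cells, EGFR with 7.57 in COL8A1 cells and 8.32 in NC cells, and ERBB2 with 7.37 in COL8A1 cells and 7.67 in NC cells. Neighbours among these 3 overlapped. NTRK2 had 2.25 CPM per kb in COL8A1 cells and 2.29 in NC cells, INSR 2.14 against 1.88, and FGFR1 1.62 against 1.54. NTRK2 and INSR overlapped over the libraries, and INSR lay above FGFR1 in every library. PDGFRB and KIT came last, with means over the 4 libraries of 0.0212 and 0.00647 CPM per kb.

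The order depends on the length used. Per kb of the longest transcript 7 of the 10 positions changed: PDGFRA came before MET, ERBB2 before IGF1R and EGFR, and FGFR1 before INSR. A group of high, middle and low receptors was kept under both lengths. MET and PDGFRA stood at percentiles 95.7 and 95.6 of the level per kb of all tested genes, IGF1R at 76.9, EGFR at 66.9 and FGFR1 at 33.0.

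Among the 58 receptor tyrosine kinase genes examined, 31 were above 1 CPM and 8 had no read in any library. The highest level per kb belonged to EPHA2, an ephrin receptor, with 106.6 CPM per kb in COL8A1 cells and 114.3 in NC cells. MET and PDGFRA came next, ahead of FGFR3 (47.1 and 45.8), the ephrin receptor EPHB4 (44.2 and 39.7) and AXL, the receptor of GAS6 (31.2 and 33.4), each given for COL8A1 cells first. IGF1R ranked 10, EGFR 13, ERBB2 14, NTRK2 20, INSR 22 and FGFR1 23. FGFR3 rather than FGFR1 was the most read of the fibroblast growth factor receptors with a kinase domain.

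**Figure D2:**
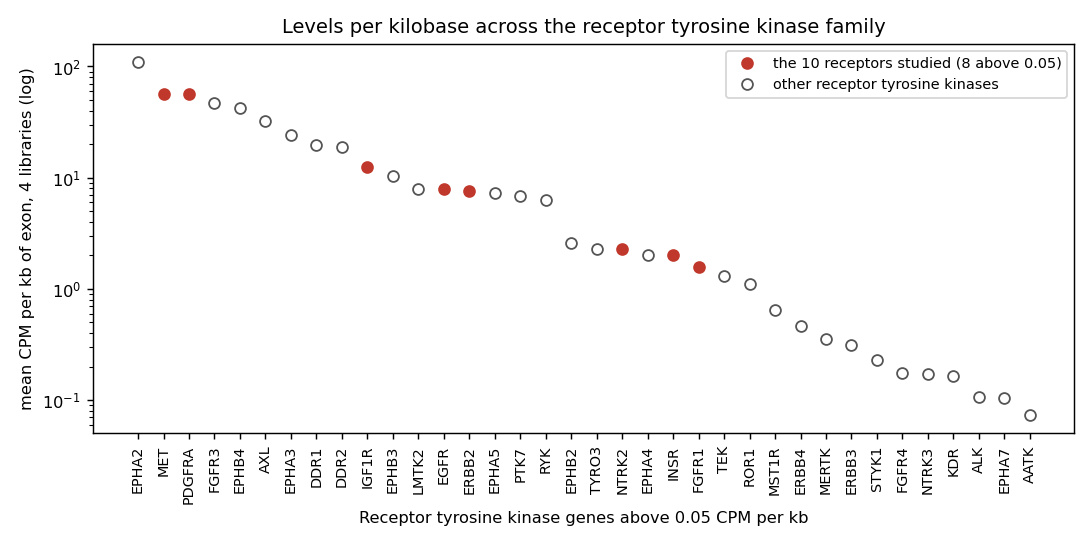
Receptor tyrosine kinase genes ranked by level in CPM per kb of exon (log axis), mean of the 4 libraries, with 8 of the 10 glioblastoma receptors as filled symbols and other receptor tyrosine kinases as open ones, and genes at or under 0.05 CPM per kb, PDGFRB and KIT among them, not drawn. MET and PDGFRA follow EPHA2 at ranks 2 and 3, IGF1R, EGFR and ERBB2 lie at ranks 10, 13 and 14, and NTRK2, INSR and FGFR1 at ranks 20, 22 and 23.

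None of the 8 receptors that could be tested differed between the vectors past the threshold. Each was tested with edgeR's quasi-likelihood test and the Benjamini-Hochberg adjustment over the 17030 genes with enough reads, and the threshold was 0.05. The test called 2 genes in all (0.0117%) and none of the 8 receptors. At an unadjusted p under 0.05 it held 6.07% of all genes and 0 receptors, and DESeq2 called 1.06% of all genes and 0 receptors. The count at an unadjusted p depends on the libraries kept. Without COL8A1 replicate 2, which leaves 1 library in that group, the PDGFRA estimate moved from 0.35 to 0.56. In bulk RNA a lower level can be fewer cells of a kind or less RNA per cell, and these cannot be told apart. Of the 8 receptors, 3 had a positive and 5 a negative log2 fold change, with a median of −0.04, against 0.001 over all genes tested. The libraries of the 2 groups did not overlap in 3 of the 8 receptors, PDGFRA and INSR higher and MET lower in COL8A1 cells, against 37.5% of all genes.

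**Figure D3:**
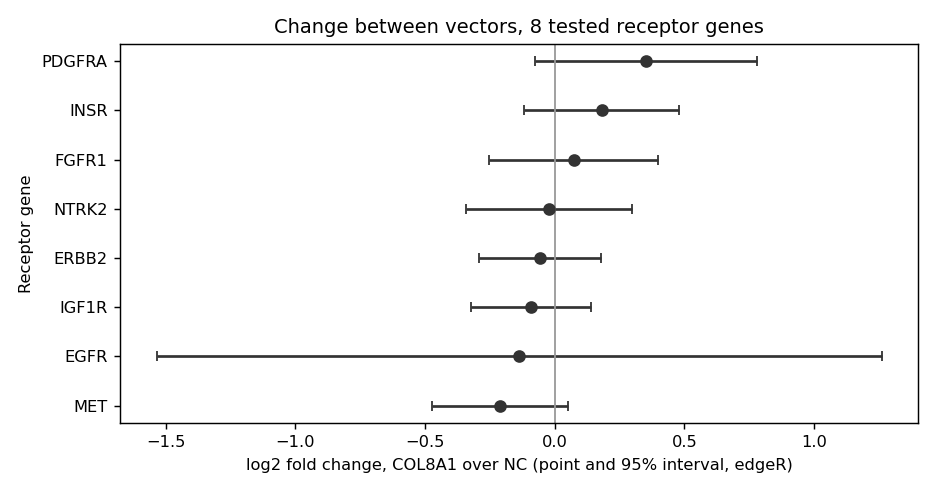
Log2 fold change of the 8 tested receptors, COL8A1 over NC, with 95% intervals from the edgeR fit. All 8 intervals include 0; the interval of EGFR, from −1.54 to 1.26, is the widest, and PDGFRA has the largest positive and MET the largest negative estimate.

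PDGFRA (ENSG00000134853; chromosome 4, 54229097 to 54298247, plus strand) had 22525 and 14279 counts in COL8A1 cells and 14184 and 16720 in NC cells, which is 709 and 514 CPM against 463 and 496 CPM. The COL8A1 libraries were both above the NC libraries, and replicate 1 lay well above the other 3. The mean was 611 ± 138 CPM in COL8A1 cells and 479 ± 23.7 CPM in NC cells (SD, n = 2 each), a log2 fold change of 0.35 (SE 0.163, edgeR adjusted p = 0.835) with a 95% interval from −0.08 to 0.78. The interval spans folds of 0.947 to 1.72. Without COL8A1 replicate 1 the estimate was 0.10 (edgeR adjusted p = 0.851, against 0.294 to 0.998 over the alternatives) and without COL8A1 replicate 2 it was 0.56. An uncharacterised GENCODE transcript, AC058822.1, shares 1533 exon bases with PDGFRA on its own strand and had no count. Of the genes within 1 Mb, FIP1L1 had 80.0 and 80.0 CPM in COL8A1 cells and 81.4 and 83.8 CPM in NC cells. CHIC2 was also higher in COL8A1 replicate 1, with 55.9 and 41.7 CPM in COL8A1 cells and 43.1 and 48.8 CPM in NC cells. So was GSX2, a gene of fewer reads, with 5.03 and 3.06 CPM against 3.29 and 3.17 CPM. LNX1 had 19.5 and 18.4 CPM against 16.3 and 18.5 CPM, and SCFD2 29.2 and 30.8 CPM against 30.6 and 27.2 CPM. KDR, also of few reads, was lowest in COL8A1 replicate 1, with 0.598 and 1.37 CPM against 1.24 and 1.13 CPM.

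KIT (ENSG00000157404; chromosome 4, 54657918 to 54740715, plus strand), downstream of PDGFRA on the same chromosome, had 0 and 4 counts in COL8A1 cells and no count in the NC libraries, where a count of 0 allows up to 0.0978 and 0.0890 CPM. PDGFRB (ENSG00000113721; chromosome 5, 150113837 to 150155872, minus strand) had 0 and 2 counts in COL8A1 cells and 0 and 18 in NC cells. NC replicate 2 alone had 0.534 CPM of it. Both were too low to test, and no fold is given for them. The floor is 3 counts and covers counting error only, since PCR copies are counted as reads.

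MET (ENSG00000105976; chromosome 7, 116672390 to 116798386, plus strand) had 10855 and 11136 counts in COL8A1 cells and 13691 and 13902 in NC cells, or 342 and 401 CPM against 446 and 412 CPM. Every COL8A1 library lay below every NC library. The mean was 371 ± 42.0 CPM in COL8A1 cells and 429 ± 24.0 CPM in NC cells (SD, n = 2 each), a log2 fold change of −0.21 (SE 0.099, edgeR adjusted p = 0.835) and a 95% interval from −0.47 to 0.05. CAV1 and CAV2, the caveolin genes beside MET, had estimates of −0.19 (SE 0.058) and −0.23 (SE 0.119), with CAV1 at 928 and 906 CPM in COL8A1 cells and 1089 and 1011 CPM in NC cells. CAPZA2, an actin capping gene on the other side, was at −0.04 (SE 0.074). ST7, farther out on that side, was at 0.18 (SE 0.193), the opposite sign to MET. None of these neighbours passed the edgeR threshold. The genes around the receptors were chosen after the receptor values were seen.

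EGFR (ENSG00000146648; chromosome 7, 55019021 to 55211628, plus strand) parted the libraries by replicate number, not by vector. It had 3990 and 1776 counts in COL8A1 cells and 4552 and 2022 in NC cells, or 126 and 64.0 CPM against 148 and 60.0 CPM. Replicate 1 was 1.96-fold above replicate 2 in COL8A1 cells and 2.47-fold above it in NC cells, while COL8A1 cells were at 0.846 of NC cells in replicate 1 and at 1.07 in replicate 2. The mean was 94.7 ± 43.6 CPM in COL8A1 cells and 104 ± 62.5 CPM in NC cells (SD, n = 2 each). The log2 fold change was −0.14 (SE 0.532, edgeR adjusted p = 0.978) with a 95% interval from −1.54 to 1.26, so folds of 0.345 to 2.40 lie within it. EGFR-AS1, which shares 186 exon bases on the opposite strand, had no count in any library.

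The split of EGFR was compared with its neighbours and with other well-read genes, by a measure chosen after its values were seen. Of 10041 genes that averaged 300 counts or more, 62 (0.617%) had both libraries of a replicate number at least 1.5-fold above both of the other, 33 of them with replicate 1 higher. EGFR was the only one of the 10 receptors among them, with a gap of 1.96-fold, and ranked 37 by the size of its gap. The same gap parted 77 genes (0.767%) by vector and 83 (0.827%) crosswise. Within 1 Mb of EGFR, the genes that averaged 300 counts or more had replicate 1 over replicate 2 ratios of 0.610 to 0.968 in COL8A1 cells and 0.848 to 1.10 in NC cells. SEC61G, on one side, had ratios of 0.968 and 0.942 and LANCL2, on the other, 0.904 and 1.06, for COL8A1 and NC cells. ZNF713, a gene of fewer reads, had ratios of 1.37 and 1.62 from 177 and 113 counts in COL8A1 cells and 197 and 134 in NC cells.

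**Figure D4:**
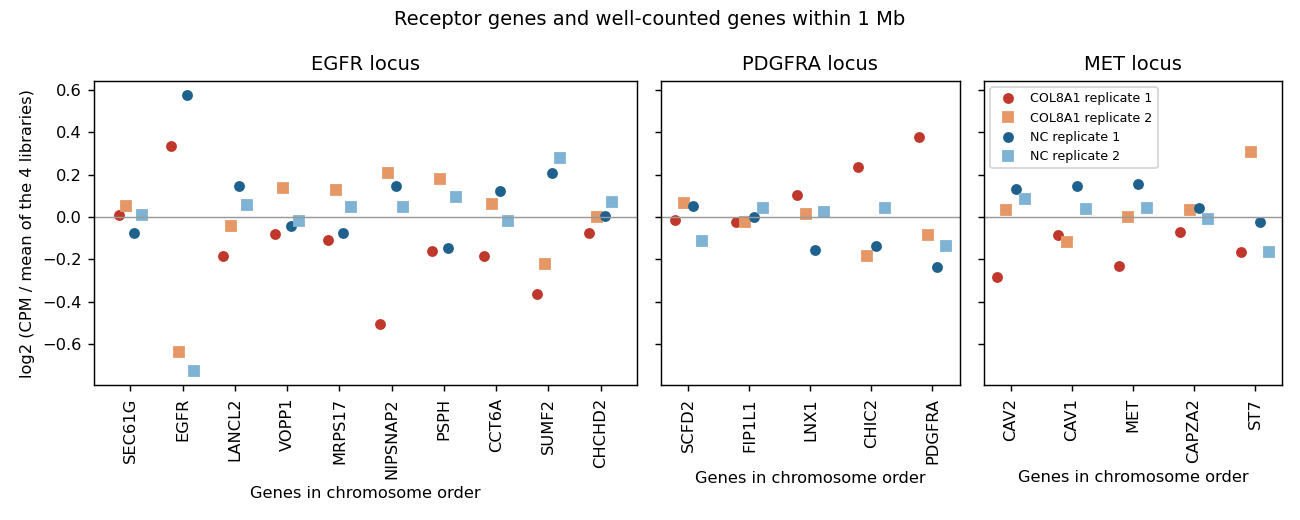
Level of EGFR, PDGFRA and MET and of the well-read genes within 1 Mb of each, as log2 of CPM over the mean of the 4 libraries, with the genes in chromosome order, 1 symbol for each library, for genes that averaged 300 counts or more. EGFR has its replicate 1 libraries above 0 and its replicate 2 libraries below 0 in both groups, while the libraries of SEC61G and LANCL2 beside it lie much closer together.

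ERBB2 (ENSG00000141736; chromosome 17, 39687914 to 39730426, plus strand), the partner receptor of EGFR, did not share the split. It had 79.3 and 72.8 CPM in COL8A1 cells and 76.6 and 81.7 CPM in NC cells, from 2520 and 2021 counts against 2348 and 2755. The log2 fold change was −0.06 (SE 0.089, edgeR adjusted p = 0.930) with a 95% interval from −0.29 to 0.18. MIEN1 and PGAP3 share 571 and 194 exon bases with ERBB2 on the opposite strand and had 982 and 854 against 901 and 906 counts, and 401 and 236 against 178 and 349 counts, in COL8A1 and NC cells. The counting strand is not given in the sources used here, so reads in these bases cannot be told apart. Summed over the 3 genes the log2 fold change was 0.03 (SE 0.083, edgeR adjusted p = 0.975), the opposite sign.

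IGF1R (ENSG00000140443; chromosome 15, 98648539 to 98964530, plus strand) had 5694 and 4378 counts in COL8A1 cells and 5631 and 5904 in NC cells, which is 179 and 158 CPM against 184 and 175 CPM. The groups overlapped, and the log2 fold change was −0.09 (SE 0.088, edgeR adjusted p = 0.885; 95% interval −0.32 to 0.14). INSR (ENSG00000171105; chromosome 19, 7112255 to 7294034, minus strand), the insulin receptor, had 730 and 602 counts in COL8A1 cells and 578 and 692 in NC cells, or 23.0 and 21.7 CPM against 18.8 and 20.5 CPM. Its groups did not overlap, with a log2 fold change of 0.18 (SE 0.113, edgeR adjusted p = 0.847; 95% interval −0.12 to 0.48). INSR and IGF1R had estimates of opposite sign, a difference that was not tested.

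NTRK2 (ENSG00000148053; chromosome 9, 84668551 to 85027070, plus strand) had 49.6 and 42.1 CPM in COL8A1 cells and 48.5 and 44.6 CPM in NC cells, a log2 fold change of −0.02 (SE 0.122, edgeR adjusted p = 0.987; 95% interval −0.34 to 0.30). FGFR1 (ENSG00000077782; chromosome 8, 38400215 to 38468834, minus strand) had 23.7 and 21.3 CPM in COL8A1 cells and 20.2 and 22.5 CPM in NC cells, a log2 fold change of 0.07 (SE 0.124, edgeR adjusted p = 0.939; 95% interval −0.25 to 0.40). Both receptors overlapped between the groups. LETM2 shares 138 exon bases with FGFR1 on the opposite strand and had 108 and 82 counts in COL8A1 cells and 120 and 91 in NC cells.

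The ligands of these receptors were read unevenly, and both hardly read receptors, KIT and PDGFRB, had a well-read ligand, KITLG and PDGFB. Of 30 ligand genes, 16 could be tested, 9 of them with a positive and 7 with a negative estimate and a median of 0.03. edgeR and DESeq2 called none, against 0.0117% and 1.06% of all genes. At an unadjusted edgeR p under 0.05 there was 1 (FGF2), against 6.07% of all genes. KITLG, the ligand of KIT, had 2092 and 3043 counts in COL8A1 cells and 3801 and 4132 in NC cells, or 65.8 and 109.6 CPM against 124 and 122.6 CPM. The COL8A1 libraries lay below the NC libraries, with a log2 fold change of −0.49 (SE 0.249, edgeR adjusted p = 0.835) that was −0.17 without COL8A1 replicate 1 and −0.91 without COL8A1 replicate 2. HGF, the ligand of MET, had 26 and 8 counts in COL8A1 cells and 0 and 4 in NC cells and was too low to test, although MET was among the most read receptors.

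Among EGFR ligands TGFA had the highest level per kb, 44.1 CPM per kb over the 4 libraries against 7.95 for EGFR itself and 4.06 for EREG. It had 209 and 226 CPM in COL8A1 cells and 229 and 210.4 CPM in NC cells, a log2 fold change of −0.01 (SE 0.080, edgeR adjusted p = 0.989). It did not share the replicate split of EGFR. EREG had a mean of 23.5 CPM in COL8A1 cells and 23.0 CPM in NC cells, EGF 14.3 and 13.9 CPM, BTC 9.64 and 7.19 CPM and HBEGF 3.86 and 2.71 CPM, while AREG had no count. NRG1 and NRG2, ligands of the ERBB2 partners ERBB3 and ERBB4, had 44.0 and 3.90 CPM in COL8A1 cells and 33.9 and 5.31 CPM in NC cells.

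Of the PDGF genes, PDGFC was at 109.1 ± 1.77 CPM in COL8A1 cells and 104 ± 3.88 CPM in NC cells (SD, n = 2 each) and PDGFB at 56.7 and 55.8 CPM. PDGFD had 24.5 CPM in COL8A1 cells and 22.8 CPM in NC cells and PDGFA 6.87 against 7.33 CPM. Per kb, PDGFC, which binds PDGFRA, was the highest of the 4 ligands with 19.1 CPM per kb over all libraries, against 56.0 for PDGFRA. FGF2, a ligand of FGFR1 and other FGF receptors, stood at 26.9 CPM per kb against 1.58 for FGFR1. It had 177 and 129 CPM in COL8A1 cells and 216 and 206 CPM in NC cells, both COL8A1 libraries below both NC libraries, with a log2 fold change of −0.46 (SE 0.163, edgeR adjusted p = 0.804) that was −0.26 without COL8A1 replicate 2 and −0.71 without COL8A1 replicate 1. BDNF, the ligand of NTRK2, had 7.99 and 8.89 CPM in COL8A1 cells and 10.9 and 9.55 CPM in NC cells. IGF1 had 87 and 34 counts in COL8A1 cells and 18 and 36 in NC cells, IGF2 0 and 8 against 0 and 0, and INS none.

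**Figure D5:**
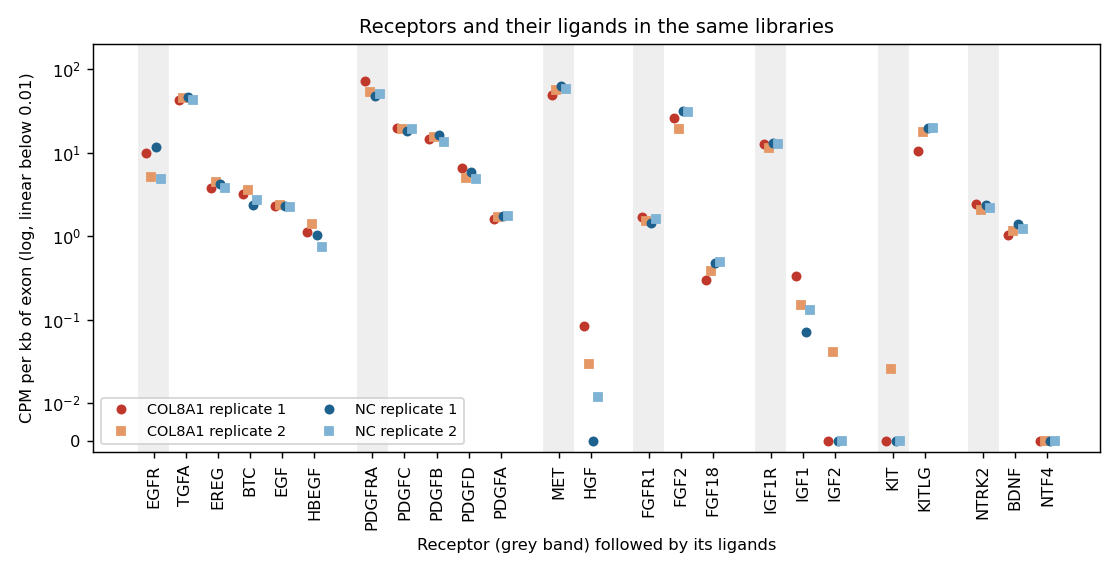
Levels of 7 receptors (grey bands) and, to the right of each, ligands of its receptor family, in CPM per kb of exon. The axis is a log axis that is linear below 0.01. COL8A1 libraries are left of the NC libraries, with 1 symbol for each library. The PDGF genes all stand beside PDGFRA, and PDGFRB is not drawn. TGFA lies above EGFR and FGF2 above FGFR1, HGF lies far below MET, and KITLG is well read beside KIT at or near 0.

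Of the 48 other receptor tyrosine kinases 28 could be tested, 15 with a positive and 13 with a negative estimate. Their median was 0.02. edgeR called none and DESeq2 1, against 0.0117% and 1.06% of all genes. At an unadjusted edgeR p under 0.05 there were 3 (against 6.07% of all genes), all higher in COL8A1 cells. These were the ephrin receptors EPHB3, EPHA7 and EPHB4. EPHB3 had 58.2 and 53.8 CPM in COL8A1 cells and 38.9 and 38.5 CPM in NC cells, with a log2 fold change of 0.53 (SE 0.094, edgeR adjusted p = 0.492). DESeq2 called it (adjusted p = 0.00523, against 0.00523 to 0.931 over all alternatives). EPHA7 was at 1.21 CPM in COL8A1 cells and 0.347 CPM in NC cells, and EPHB4 at 284 and 256 CPM.

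Among 23 tested adaptors of 26, 11 had a positive and 12 a negative estimate, with a median of −0.01. edgeR called none and DESeq2 1, against 0.0117% and 1.06% of all genes. SHC1, which links phosphorylated receptors to GRB2 and RAS, had 159 and 160.0 CPM in COL8A1 cells and 214 and 215 CPM in NC cells, a log2 fold change of −0.43 (SE 0.059, edgeR adjusted p = 0.347). It was the only adaptor at an unadjusted edgeR p under 0.05 (against 6.07% of all genes), and DESeq2 called it (adjusted p = 0.000798, against 0.000798 to 0.791 over all alternatives). GRB2 and PTPN11, the most read adaptors per kb, had estimates of −0.01 (SE 0.058) and −0.05 (SE 0.059).

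Of the 33 tested genes of receptor inhibition and turnover, out of 34, 21 had a positive and 12 a negative estimate, with a median of 0.04 and no edgeR or DESeq2 call (against 0.0117% and 1.06% of all genes). At an unadjusted edgeR p under 0.05 there were 5 higher and 1 lower in COL8A1 cells, 18.2% of those tested against 6.07% of all genes. IGFBP5, a binding protein of insulin-like growth factors, had a mean of 902 CPM in COL8A1 cells and 619 CPM in NC cells, with an estimate of 0.54 (SE 0.151, edgeR adjusted p = 0.689), and IGFBP6 17.5 and 26.6 CPM (−0.60, SE 0.158, edgeR adjusted p = 0.663). IGFBP4, the most read of them per kb, had 852 CPM in COL8A1 cells and 840.2 CPM in NC cells, an estimate of 0.02. The others at this p were SH3KBP1, IGFBP2 and, named after their values were seen, IGFBP3 and FGFRL1. FGFRL1, a receptor without a kinase domain that binds FGFs, had 392 and 238 CPM in COL8A1 cells and 194 and 146 CPM in NC cells (edgeR adjusted p = 0.747).

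All 16 genes of the RAS and MAPK core could be tested, 5 with a positive and 11 with a negative estimate. Their median was −0.05. None was at an unadjusted edgeR p under 0.05 (against 6.07% of all genes). edgeR and DESeq2 called none of them, against 0.0117% and 1.06% of all genes. BRAF had the smallest p, with 38.4 CPM in COL8A1 cells and 31.0 CPM in NC cells, an estimate of 0.31 (SE 0.123, edgeR adjusted p = 0.816). In the PI3K and AKT core 20 of 21 genes could be tested, 14 with a positive and 6 with a negative estimate. Their median was 0.03. edgeR called none and DESeq2 1, against 0.0117% and 1.06% of all genes. At an unadjusted edgeR p under 0.05 there were 3 higher and 1 lower in COL8A1 cells (against 6.07% of all genes). TSC1 was at 31.1 CPM in COL8A1 cells and 25.3 CPM in NC cells and PDPK1, which phosphorylates AKT, at 51.7 and 63.7 CPM. PIK3R2, a regulatory subunit of PI3K, had 4187 and 46 counts in COL8A1 cells and 37 and 75 in NC cells, so its estimate rests on COL8A1 replicate 1. Without that library it was −0.05.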

How the data were processed

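Per the labels, 4 RNA libraries were made from 1 cell line with 2 vectors. The deposited values are raw read counts per gene, made by the authors with Trim Galore 0.6.9, HISAT2 2.2.1 and featureCounts (listed as 0.3) on hg38, per the submitters' processing notes. No source used here states the strand setting, the annotation release or the parameters. Of the deposited table, 1 line of a protein domain was left out.

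Counts were tested in R 4.3.3 with edgeR 4.0.16 (filterByExpr, TMM, quasi-likelihood test, group only, 2 residual degrees of freedom), with Benjamini-Hochberg adjusted p-values over 17030 genes. CPM use the TMM-scaled library sizes. SE is the absolute log2 fold change over the square root of F, and the 95% interval uses 4.64 degrees of freedom. Kilobases come from GENCODE release 29, promoters from RefSeq. The fits were tested on simulated counts before use. A p-value reflects the spread of these 4 libraries alone, and that spread may be technical.

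The 10 receptors, 6 pathway lists (175 symbols) and 7 marker lists were chosen with earlier results of these data known. Named are the receptors, ligands of at least 1 CPM on average, in each list the 4 smallest p-values and the 2 highest levels per kb, and genes sharing exons with a receptor. For some genes that this rule or a list names, the result is not reported here. Pathway lists are described by counts and medians, with no set test. Alternatives were other scalings, filters, DESeq2 1.42.0, limma-voom 3.58.1, a replicate block, counts summed over genes sharing exons, transcript length, and each library left out.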

Additional observations from a re-analysis of the deposited data

How the results depend on the processing

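No receptor was called under any of 13 alternatives, and the smallest edgeR, DESeq2 or limma-voom adjusted p of the 8 tested receptors was 0.294 (PDGFRA). Of all genes, 0 were called higher and 2 lower in COL8A1 cells. Without a low-count filter the counts were 11 and 6, with DESeq2 103 and 77, and with the replicate number as a block 0 and 1. Leaving out each library gave 0 to 2 higher and 0 to 2 lower. Same-numbered libraries had a correlation of −0.036 in their deviations from the group means over 17030 genes. It does not speak for single genes such as EGFR. The main fit used group only and did not take the numbers as pairs, and the labels do not say what a number shares. With the block EGFR was at −0.08 (SE 0.122, edgeR adjusted p = 0.968). COL8A1, at 5.45 with an edgeR adjusted p of 0.0681, was called without a low-count filter (5.44), with DESeq2 (5.45) and without COL8A1 replicate 2 (5.77), and over libraries left out it ran from 5.04 to 5.77. With counts summed over genes that share exons ERBB2 was at 0.025. Leaving out each library turned these signs: EGFR from −0.70 to 0.66, FGFR1 from −0.00497 to 0.15, NTRK2 from −0.14 to 0.087, TGFA from −0.077 to 0.049, PDGFD from −0.093 to 0.27, EPHA2 from −0.32 to 0.089, NRAS from −0.029 to 0.0036, PIK3R2 from −0.053 to 6.25, EREG from −0.11 to 0.15, PDGFB from −0.10 to 0.15, FGFR3 from −0.14 to 0.20, GRB2 from −0.031 to 0.0019, IGFBP4 from −0.11 to 0.14, NRG2 from −0.87 to 0.17 and HRAS from −0.47 to 0.056. Of the other receptors, MET ran from −0.33 to −0.10, INSR from 0.12 to 0.24 and IGF1R from −0.19 to −0.006. The cause of these shifts was not tested. With 2 libraries a group the intervals above bound what could be seen, and PDGFRB and KIT lie at the depth limit.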

Other observations

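EGFR was not alone in differing between libraries of 1 group. Of 115 receptor and pathway genes that averaged 300 counts or more, 9 differed at least 1.5-fold within COL8A1 or NC cells. Of these, 3 differed at least 2-fold (EGFR, NCK2 and PIK3R2). The share among all genes with that many counts was not taken, so whether 9 of 115 is more than usual was not tested. NCK2, an adaptor, had 24.6 and 17.4 CPM in COL8A1 cells and 27.2 and 8.84 CPM in NC cells, replicate 1 higher in both. PTPRJ, a receptor phosphatase, had 176 and 110.8 CPM in COL8A1 cells and 139 and 139.9 CPM in NC cells. The ephrin receptor EPHA5 had 83.6 and 54.7 CPM in COL8A1 cells and 72.1 and 76.5 CPM in NC cells. RNF41, a ubiquitin ligase, had 41.5 and 70.4 CPM in COL8A1 cells and 47.4 and 58.4 CPM in NC cells, replicate 2 higher in both. KITLG and FGFRL1, described above, were also among the 9. These genes were listed after their values were seen.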
